A study of Mus musculus with 12 samples.

Results

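The comparison described here set mouse oocytes lacking Rnf2 alone against control oocytes, over 21590 genes. Its members were chosen by genotype label, 3 Rnf2 mutant arrays and 3 control arrays, which made 6 of the 12 arrays of the series. Rnf2 mutant oocytes were Ring1+/+ Rnf2F/F with a Zp3-cre transgene, in which the promoter of the zona pellucida gene Zp3 drives Cre recombinase in growing oocytes. Control oocytes were Ring1+/+ Rnf2F/F without Cre, so the floxed Rnf2 allele was shared by both groups and the transgene by the mutants alone. The other 6 arrays, used here only beside the main comparison, came from double mutant oocytes (Ring1-/- Rnf2F/F Zp3-cre) and Ring1 mutant oocytes (Ring1-/- Rnf2F/F). All females were 5 to 10 weeks old and of mixed 129/Sv and C57BL/6J background. They received 5 U of the gonadotropin PMSG, and fully grown oocytes arrested at the germinal vesicle (GV) stage were taken 46 h later into medium with 2.5 µM milrinone, which holds the arrest. Each array measured the amplified RNA of 50 oocytes pooled from several females. The labels do not say if females contributed to more than 1 pool of their genotype, and the p-values here reflect only how these pools vary.

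Rnf2 (RING1B) and its paralog Ring1 (RING1A) are the E3 ubiquitin ligases of Polycomb repressive complex 1 (PRC1), which places ubiquitin on histone H2A at silenced developmental genes. Either ligase can serve in the complex, and in many tissues Rnf2 provides most of the activity. A growing oocyte transcribes and stores the messages that carry the embryo until its own genome becomes active, and a fully grown GV oocyte transcribes little. Its RNA therefore reflects what was made during growth and what has been degraded since.

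The deposited values are log2 intensities, so a difference of 1 is a 2-fold change on the array's scale. The 3 Rnf2 mutant arrays had Rnf2 levels of 5.60, 5.93 and 6.04 log2, and the 3 control arrays had 8.33, 8.44 and 8.23. All mutant arrays lay below all controls, and the mean was 2.48 ± 0.11 log2 lower (SE of the limma fit, n = 3 per group), or 5.57-fold lower (adjusted p 5.8e-07). The remaining Rnf2 signal was above 3.86 log2, the level under which 95% of 1024 olfactory receptor genes lay and which served here as the floor of detection. The labels do not say which exons were deleted or where the probes lie relative to them. Ring1 itself measured 3.92, 3.92 and 3.92 log2 in Rnf2 mutants, against 3.85, 3.87 and 3.80 in controls. Those levels are near the floor, and the change of 0.08 ± 0.11 did not pass (adjusted p 0.95). Ring1 averaged 3.79 log2 in double mutants and 3.79 in Ring1 mutants as well, so its deletion there could not be checked on these arrays. All 17 oocyte markers examined were above the floor, none was called in either direction by limma (0 at an unadjusted p below 0.05), and their changes ran between -0.10 (Figla) and 0.05 (Nlrp5), with Zp3 itself at 0.03 ± 0.06.

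Array medians were 3.83 to 3.85 log2 in Rnf2 mutants and 3.82 to 3.87 in controls, and no pair of arrays held identical values. Across genes, arrays correlated at 0.99659 to 0.99702 within the Rnf2 mutants, at 0.9964 to 0.99668 within the controls, and at 0.99551 to 0.99639 between the groups. The first principal component of these 6 arrays held 27.1% of the variance and placed the mutants at 6.7, 11.3 and 10.9 and the controls at -7.7, -7.4 and -13.8.

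Few genes passed between Rnf2 mutant oocytes, which also carried Cre, and control oocytes. Of 21590 genes, 30 passed an adjusted p below 0.05 (0.139%), 21 of them higher in Rnf2 mutants (0.0973%) and 9 lower (0.0417%). The signal of Mt1, a metallothionein, was 27.8-fold higher and was the only rise of more than 3 log2. After it came the prostaglandin synthase Ptgs2 (1.12 log2), the trophoblast gene Plac1 (1.11), the decidual hormone Prl8a2 (1.04), the sterol sulfotransferase Sult2b1 (0.98) and the disulfide isomerase Pdia6 (0.81). Besides Rnf2, the steepest called falls were those of Arl8a, a small GTPase of lysosomes, and Epha7, an ephrin receptor. Of the called genes, 7 changed by 2-fold or more, 4 upwards and 3 downwards, and the smallest called change was 0.41 log2. In all 30 the arrays of the groups did not overlap, which was also so of 2646 genes in all (12.3%).

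**Figure D1:**
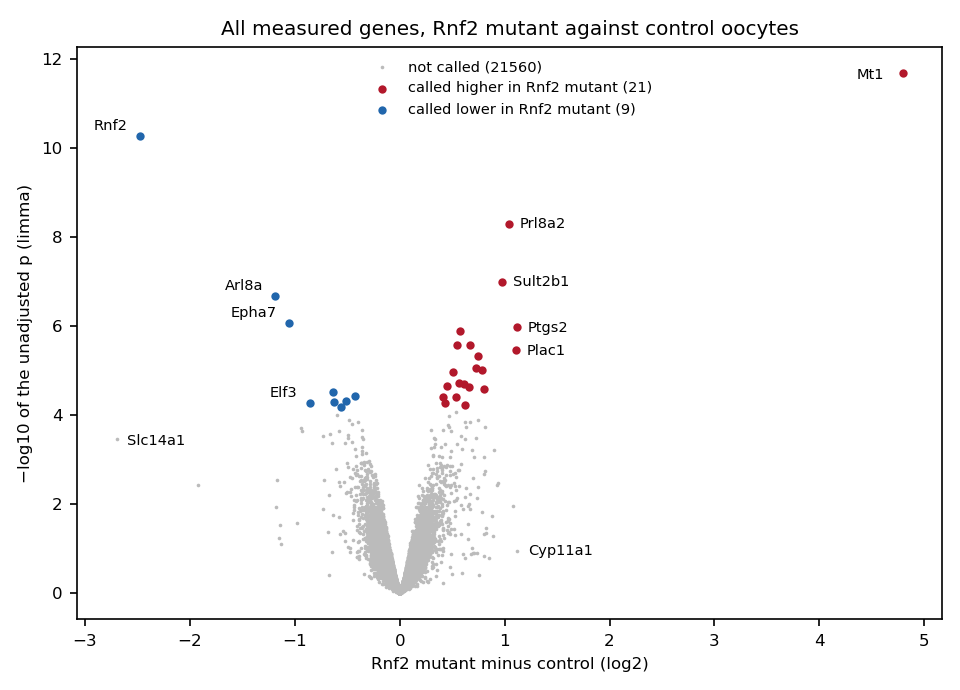
Each of 21590 genes is placed by its log2 difference, Rnf2 mutant minus control, and by the −log10 of its unadjusted limma p. The 21 genes called higher and 9 called lower are coloured; Mt1 (4.79) and Rnf2 (-2.48) stand far from the rest, while Slc14a1 (-2.70) and Cyp11a1 (1.12) are large changes that did not pass.

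The measurement was fine enough to bound most changes in signal, though only 12602 genes had a mean above the floor. Changes near the floor are compressed, so a narrow interval there bounds the signal and not the RNA. The median difference over all genes was -0.01 log2, and the 5th and 95th percentiles were -0.19 and 0.19. The median standard error was 0.09 log2. For 21492 genes (99.6%) the 95% confidence interval of the change lay within 1 log2 of 0, and for 20141 (93.3%) within 0.5 log2. At an unadjusted p below 0.05 there were 1442 genes (6.68%). Between adjusted p of 0.05 and 0.1 there were 20 more genes, 12 higher and 8 lower. The spread in these tests was estimated over all 12 arrays. With only the 6 arrays of this comparison 6 genes passed, 5 of them among the 30. The count also moved with single arrays: it was 14 without Rnf2 mutant replicate 1, 10 without replicate 2, 15 without control replicate 1, 16 without control replicate 2, 17 without double mutant replicate 1 and 19 without double mutant replicate 3. Mt1, Rnf2, Prl8a2, Sult2b1 and Arl8a were called under every alternative in which they were tested.

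Promoter sequences of the genes that the results turn on are given first for the metallothioneins, because Mt1 and its neighbour Mt2 are the classic pair of metal-responsive genes, and Mt1 rose while Mt2 was not called. Each window runs 250 bases before to 50 bases after the annotated start (RefSeq, GRCm38.p6). Capitals mark the core of the metal response element, searched as TGCACNC or TGCGCNC on both strands.
Mt1, chr8:94178839-94179138, plus strand: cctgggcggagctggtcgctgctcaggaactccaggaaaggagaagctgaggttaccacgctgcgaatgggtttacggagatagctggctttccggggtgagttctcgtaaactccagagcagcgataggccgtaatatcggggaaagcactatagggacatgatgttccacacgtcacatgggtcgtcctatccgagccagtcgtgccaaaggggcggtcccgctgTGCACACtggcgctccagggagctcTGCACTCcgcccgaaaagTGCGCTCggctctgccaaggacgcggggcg
Mt2, chr8:94172368-94172667, plus strand: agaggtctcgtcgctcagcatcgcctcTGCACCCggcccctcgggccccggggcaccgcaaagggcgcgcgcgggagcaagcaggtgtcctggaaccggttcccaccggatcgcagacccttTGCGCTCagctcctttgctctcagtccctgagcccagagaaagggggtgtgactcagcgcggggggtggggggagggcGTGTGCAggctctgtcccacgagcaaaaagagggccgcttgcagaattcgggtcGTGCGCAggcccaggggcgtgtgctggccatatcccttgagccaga
Mt1 holds 3 such matches and Mt2 holds 4, as does Tmed4, while the windows of Mt3 and Mt4 hold 1 each. Of 32851 promoter windows of this length, 25.7% hold at least 1 match (TGCACNC in 12.6%, TGCGCNC in 15.4%), 1.97% hold 3 or more and 0.518% hold 4 or more. A match is a run of letters and not a measured binding site.

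A second set is shown for a rise and a fall of similar size, with each CpG in capitals, because PRC1 is known to be recruited to CpG-rich promoters. Plac1 and Ptgs2 were higher in Rnf2 mutants, and Epha7 and Arl8a were lower.
Plac1, chrX:53240061-53240360, minus strand: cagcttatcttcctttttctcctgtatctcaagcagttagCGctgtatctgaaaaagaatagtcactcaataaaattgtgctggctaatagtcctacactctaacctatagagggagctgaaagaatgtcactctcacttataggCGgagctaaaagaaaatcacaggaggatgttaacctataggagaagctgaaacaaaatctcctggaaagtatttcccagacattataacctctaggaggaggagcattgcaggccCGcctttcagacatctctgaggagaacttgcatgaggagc
Ptgs2, chr1:150099781-150100080, plus strand: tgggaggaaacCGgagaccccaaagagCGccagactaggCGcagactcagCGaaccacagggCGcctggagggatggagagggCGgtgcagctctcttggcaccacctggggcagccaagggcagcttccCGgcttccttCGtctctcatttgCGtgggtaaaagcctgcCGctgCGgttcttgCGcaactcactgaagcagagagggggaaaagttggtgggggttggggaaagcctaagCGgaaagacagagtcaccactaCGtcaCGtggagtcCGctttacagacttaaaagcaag
Epha7, chr4:28812881-28813180, plus strand: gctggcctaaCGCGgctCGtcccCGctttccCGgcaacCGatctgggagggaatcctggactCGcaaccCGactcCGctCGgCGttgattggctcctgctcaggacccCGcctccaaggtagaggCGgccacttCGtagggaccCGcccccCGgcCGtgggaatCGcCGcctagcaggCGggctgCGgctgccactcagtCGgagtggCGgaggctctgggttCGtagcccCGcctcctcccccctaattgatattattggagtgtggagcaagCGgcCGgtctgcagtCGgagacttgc
Arl8a, chr1:135146584-135146883, plus strand: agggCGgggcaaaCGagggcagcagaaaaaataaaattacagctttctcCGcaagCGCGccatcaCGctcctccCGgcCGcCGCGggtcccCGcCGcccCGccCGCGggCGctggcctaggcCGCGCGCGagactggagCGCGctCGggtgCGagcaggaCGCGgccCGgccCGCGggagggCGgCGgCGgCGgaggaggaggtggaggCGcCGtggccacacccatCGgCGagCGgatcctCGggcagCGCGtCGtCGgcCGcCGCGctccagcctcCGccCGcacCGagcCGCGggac
The windows hold 3 CpGs in Plac1, 16 in Ptgs2, 28 in Epha7 and 51 in Arl8a, and a second annotated start has 6 in Plac1 and 27 in Epha7. For the medians, each gene with a window was taken at its annotated start with the most CpGs, which for Plac1 is the second. The median was 15 CpGs for 15 of the 21 genes called higher (range 1 to 41) and 28 for 8 of the 9 called lower (range 3 to 51). It was 17 for 15600 of all 21590 measured genes. The ranges of the called groups overlap across most of their span.

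The metallothioneins bind zinc and copper. Mt1 measured 10.07, 10.19 and 10.30 log2 in Rnf2 mutants, against 5.68, 5.23 and 5.27 in controls. The arrays of the groups were more than 4 log2 apart, and the change was 4.79 ± 0.17 (27.8-fold, adjusted p 4.4e-08). Mt1 was as high in double mutants, at 10.11 ± 0.13, and as low in Ring1 mutants, at 5.31 ± 0.37 (SD, n = 3 each), so all 6 arrays with Cre were high and all 6 without it were low. Deletion of Rnf2 and presence of the Cre transgene went together in every array and cannot be told apart. The labels name no more of the transgene than its promoter and Cre. Whether the Mt1 probes read RNA of the Mt1 gene alone or also of the transgene cannot be told apart on these arrays, so the value is a difference in Mt1 probe signal.

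Among the other metallothioneins Mt4 alone was called. Mt2 measured 4.47, 4.59 and 4.72 log2 in Rnf2 mutants, against 4.68, 4.32 and 4.52 in controls, with overlapping arrays and a change of 0.09 ± 0.18 whose 95% interval ran between -0.30 and 0.48 (adjusted p 0.98). Mt4, a metallothionein of stratified epithelia that lies in the same gene cluster, measured 7.13, 7.11 and 6.99 log2 in Rnf2 mutants, against 6.72, 6.56 and 6.70 in controls. Mt4 thus rose by 0.41 ± 0.07 (adjusted p 0.035), a call lost in 13 of 22 alternatives. Mt3 changed by -0.06 ± 0.12, the metal-sensing transcription factor Mtf1 by -0.01 ± 0.06 and the zinc exporter Slc30a1 by 0.05 ± 0.06, none called. Of 44 measured metallothionein and metal genes, 2 were called higher (Mt1, Mt4) and none lower, against 0.139% of all genes called. The median change was -0.01 against -0.01 over all genes. This list and those below were chosen with earlier results of these data known, so the calls counted in them are a description. Among 45 genes of oxidative, heat and unfolded protein stress none was called by limma (3 at an unadjusted p below 0.05, against 6.68% of all genes), with a median of -0.03. By the brightest probe set of each gene, heme oxygenase Hmox1 had the smallest p (0.39 ± 0.15, adjusted p 0.66). Hspa8 changed by -0.05 ± 0.08 in its brightest probe set, and by 0.00, -0.74, -0.03 and -1.03 in dimmer ones, none called over all probe sets.

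**Figure D2:**
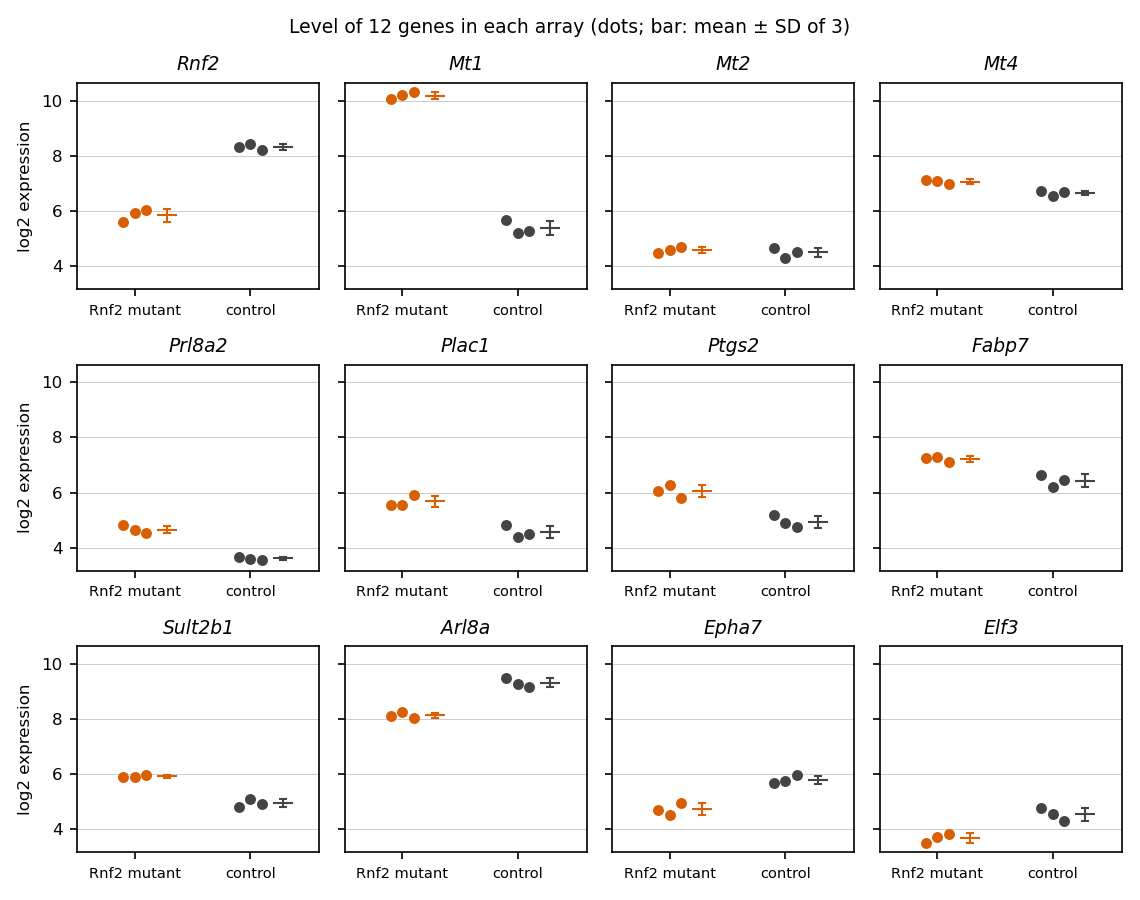
Level (log2) of 12 genes in each of 3 Rnf2 mutant and 3 control arrays, with the mean ± SD beside the dots. The arrays of the groups separate for every gene shown but Mt2, and by more than 4 log2 for Mt1.

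Prl8a2 and Plac1 were the 2 placental genes called higher. Prl8a2, a prolactin family hormone of the decidua, measured 4.82, 4.64 and 4.55 log2 in Rnf2 mutants, against 3.68, 3.62 and 3.58 in controls. All controls were under the floor of 3.86 log2 and all mutants above it, so the rise of 1.04 ± 0.07 (2.06-fold, adjusted p 3.7e-05) may be compressed. The other Prl8a genes measured (Prl8a1, Prl8a6, Prl8a8 and Prl8a9) were below the floor and not called, with changes between -0.22 and 0.02. Plac1, an X-linked membrane protein of the trophoblast, measured 5.57, 5.57 and 5.93 log2 in Rnf2 mutants, against 4.83, 4.42 and 4.50 in controls. It rose by 1.11 ± 0.14 (2.15-fold, adjusted p 0.0069). Of 77 measured placental and trophoblast genes, 17 lay above the floor and the median change was 0.00. In this list 2 were called higher and 1, the epithelial ETS factor Elf3, was called lower, against 0.139% of all genes called.

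Elf3 measured 3.51, 3.74 and 3.85 log2 in Rnf2 mutants, against 4.78, 4.57 and 4.32 in controls. The mutant arrays were all under the floor, so the fall of 0.86 ± 0.14 log2 (adjusted p 0.041) may be compressed. It was lost without control replicate 1 or 2 and without any 1 of the Rnf2 mutant arrays, among others. Tfap2c, a trophoblast transcription factor, had a change of -0.28 ± 0.07 (adjusted p 0.27).

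The list of prostaglandin and cumulus expansion genes gave 2 calls among 29 measured, against 0.139% of all genes. Ptgs2 (COX-2), the inducible enzyme that makes prostaglandin precursors and that cumulus cells use around ovulation, measured 6.08, 6.29 and 5.82 log2 in Rnf2 mutants, against 5.19, 4.90 and 4.75 in controls. The groups did not overlap, and the rise was 1.12 ± 0.12 (2.17-fold, adjusted p 0.0033). Abcc4, a transporter that exports prostaglandins and cyclic nucleotides, measured 6.92, 7.03 and 6.79 log2 in Rnf2 mutants, against 6.13, 6.19 and 6.54 in controls. It rose by 0.63 ± 0.10 (adjusted p 0.044) and was lost in 16 of 22 alternatives. Ptgs1, the constitutive relative of Ptgs2, was under the floor (0.09 ± 0.10), and Ptges3 and Ptgis changed by 0.10 ± 0.08 and -0.10 ± 0.08.

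Ptgs2 is also a granulosa and cumulus cell marker, and these markers leaned upwards in Rnf2 mutants. Of 43 measured, 27 above the floor, 31 had a positive change, against 47% of all genes, and the median was 0.11 log2 (-0.01 over all genes). An unadjusted limma p below 0.05 was found for 10, against 6.68% of all genes, 9 of the 10 higher and 1 lower. Ptgs2 was the only one called. The array medians of the list were 4.76, 4.76 and 4.91 log2 in Rnf2 mutants, against 4.66, 4.53 and 4.32 in controls. The log2 of the list's summed level ran between 11.50 and 11.79 in Rnf2 mutants and between 11.31 and 11.61 in controls, so it overlapped. Among defining granulosa genes, Fshr and Amh were under the floor in every one of these arrays. The inhibin subunit Inha measured 6.81, 7.40 and 7.40 log2 in Rnf2 mutants, against 7.01, 6.82 and 5.66 in controls, with control replicate 3 lowest. The steroid enzyme Cyp11a1 was lowest in the same array, at 6.70, 7.73 and 7.73 log2 in Rnf2 mutants, against 7.34, 6.17 and 5.28 in controls. In pooled oocytes, fewer cells of a type and less RNA per cell cannot be told apart, and the part of these markers in the called genes was not tested. Without control replicate 3 there were 22 calls. Blood and immune markers (18 measured, median 0.03, log2 summed level 8.19 to 8.33 in Rnf2 mutants and 8.19 to 8.19 in controls) and stromal, theca and endothelial markers (19 measured, median 0.04, 9.71 to 9.72 in Rnf2 mutants and 9.71 to 9.73 in controls) gave no limma call. These lists had 0 and 4 members at an unadjusted p below 0.05, against 6.68% of all genes.

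Sult2b1, which sulfates cholesterol and related sterols, measured 5.88, 5.92 and 5.98 log2 in Rnf2 mutants, against 4.83, 5.11 and 4.91 in controls. It rose by 0.98 ± 0.09 (1.97-fold, adjusted p 5.5e-04) and was the 1 call among 16 cytosolic sulfotransferases, against 0.139% of all genes. Fabp7, a carrier of long-chain fatty acids best known in the brain, measured 7.26, 7.29 and 7.10 log2 in Rnf2 mutants, against 6.66, 6.19 and 6.46 in controls. Fabp7 rose by 0.78 ± 0.11 (adjusted p 0.015), the 1 call among 9 fatty acid binding proteins, and the call was lost without control replicate 3 or Rnf2 mutant replicate 1 or 2. Dbi, which binds acyl-CoA esters, fell by 0.56 ± 0.09 log2 (adjusted p 0.047), and Abcd3, which carries fatty acids into peroxisomes, fell by 0.51 ± 0.08 (adjusted p 0.041). Both falls were lost in most alternatives, Dbi in 17 of 21 and Abcd3 in 13 of 22.

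Arl8a couples lysosomes to kinesin motors. It measured 8.09, 8.24 and 8.05 log2 in Rnf2 mutants, against 9.49, 9.27 and 9.17 in controls, and fell by 1.18 ± 0.11 (2.27-fold lower, adjusted p 9.0e-04). The arrays of the groups did not overlap. Its paralog Arl8b stood at 8.15, 8.10 and 8.20 log2 in Rnf2 mutants, against 8.10, 8.18 and 8.10 in controls (0.02 ± 0.06, 95% interval -0.11 to 0.16). Of 33 measured Arf-like GTPases and lysosome positioning genes, Arl8a was the 1 call, against 0.139% of all genes. Epha7, a receptor tyrosine kinase for ephrins, measured 4.71, 4.53 and 4.97 log2 in Rnf2 mutants, against 5.69, 5.74 and 5.95 in controls. Epha7 fell by 1.06 ± 0.11 (2.08-fold lower, adjusted p 0.0031), the 1 call among 22 ephrins and Eph receptors. The bright ligand gene Efnb2 changed by -0.16 ± 0.05 (adjusted p 0.55).

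Chrdl1, an X-linked antagonist of bone morphogenetic proteins, measured 5.03, 5.18 and 5.41 log2 in Rnf2 mutants, against 4.45, 4.51 and 4.43 in controls. It rose by 0.74 ± 0.09 (adjusted p 0.0084), a call lost without control replicate 1 or Rnf2 mutant replicate 2. Chrdl1 was the 1 call among 30 BMP antagonists and ligands, against 0.139% of all genes. In that list the oocyte's own ligands Gdf9 and Bmp15 changed by 0.00 ± 0.06 and -0.04 ± 0.05. Dppa4, a nuclear protein of pluripotent cells that acts with Dppa2 in early embryos, measured 6.82, 6.66 and 6.66 log2 in Rnf2 mutants, against 6.03, 6.15 and 5.96 in controls. Dppa4 rose by 0.67 ± 0.08 (adjusted p 0.0059), and its dimmer second probe set by 0.20. Pdia6, a protein disulfide isomerase of the endoplasmic reticulum, measured 9.90, 9.89 and 9.52 log2 in Rnf2 mutants, against 9.15, 9.06 and 8.69 in controls, a rise of 0.81 ± 0.12 (adjusted p 0.028) that was lost in 8 of 22 alternatives.

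The other called rises were between 0.43 and 0.72 log2. They included those of Pde9a (a phosphodiesterase of cyclic GMP), Ust (a sulfotransferase of dermatan and chondroitin sulfate), Nsg2 (a neuronal vesicle protein), Atp2b4 (a calcium pump of the plasma membrane), Arxes1 (an adipocyte gene on the X chromosome), Tmed4 (a cargo receptor of the early secretory pathway), 1700021F07Rik, EG546797 and Gm4884. Gm4884 was the 1 called gene with a mean under the floor. The other called falls were those of Tekt4 (a tektin of sperm flagella, -0.63 ± 0.10), Slc35b4 (a nucleotide sugar transporter, -0.43 ± 0.07) and B930036N10Rik (-0.62 ± 0.10, with 0.11 in its second probe set). No called rise or fall changed sign under any alternative, but 7 of the 30 calls were lost in more than 50% of them.

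Of the 28 called genes with a known chromosome, 6 (21.4%) lie on chromosome 1, which carries Rnf2 and 5.83% of the measured genes. They are Rnf2, Arl8a, Elf3 and Dbi, all lower, and Ptgs2 and Atp2b4, both higher. Within 10 Mb of Rnf2 there were 101 measured genes, of which Rnf2 was called lower and Ptgs2 higher, and the median change was -0.01. The X chromosome held 3 of the 28 (Plac1, Chrdl1, Arxes1), all higher, and 3.82% of measured genes. Without chromosome 1 genes, 23 genes were called, 18 higher and 5 lower.

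The double mutant minus Ring1 mutant contrast shows the same deletion of Rnf2 in oocytes with no Ring1, and it shares no array with the comparison above. There 6827 genes passed (31.6%). Of the 30 genes called with Ring1 present, 18 were called in the same direction without Ring1, 4 in the opposite direction and 8 not at all. The interaction, which is the change without Ring1 minus the change with Ring1, passed for 19 of the 30, against 4110 of all genes (19.0%). Since the 30 were chosen on arrays that also enter the interaction, their share of it is a description.

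One set of 8 genes was called in the same direction in both backgrounds with no called difference. Mt1 changed by 4.79 ± 0.17 with Ring1 and 4.80 ± 0.17 without it, and Rnf2 by -2.48 ± 0.11 and -2.60 ± 0.11. The others were Nsg2, Tmed4, Tekt4, Slc35b4, Abcd3 and B930036N10Rik, with changes of at most 0.63 log2 in size. The interaction was 0.01 ± 0.24 for Mt1 and -0.12 ± 0.16 for Rnf2.

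In 10 genes the rise was larger without Ring1, and their interaction passed. Ptgs2 rose by 1.12 ± 0.12 with Ring1 and 3.76 ± 0.12 without, to 9.08 ± 0.05 log2 in double mutants, against 5.31 ± 0.10 in Ring1 mutants. Plac1 rose by 1.11 ± 0.14 with Ring1 and 3.64 ± 0.14 without, Chrdl1 by 0.74 ± 0.09 and 3.06 ± 0.09, and Fabp7 by 0.78 ± 0.11 and 2.66 ± 0.11. Mt4 did the same on a smaller scale (0.41 ± 0.07 and 1.82 ± 0.07), as did Pde9a (0.51 and 2.17), Ust (0.56 and 1.41), Arxes1 (0.66 and 1.12) and 1700021F07Rik (0.55 and 1.04). Prl8a2 was intermediate in both single mutants, at 7.19 ± 0.05 log2 in double mutants, 4.67 ± 0.14 in Rnf2 mutants, 4.82 ± 0.01 in Ring1 mutants and 3.63 ± 0.05 in controls.

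In 6 genes the rise was smaller or missing without Ring1. Sult2b1 rose by 0.98 ± 0.09 with Ring1 and changed by 0.11 ± 0.09 without it (adjusted p 0.39). Its means were 5.93 ± 0.05 log2 in Rnf2 mutants, against 5.15 ± 0.11, 5.04 ± 0.11 and 4.95 ± 0.14 in double mutants, Ring1 mutants and controls, so Rnf2 mutants were the 1 genotype that stood high. Pdia6 and Dppa4 changed by -0.16 ± 0.12 and -0.18 ± 0.08 without Ring1, neither called. For these genes controls were the genotype that stood low. Pdia6 averaged 8.96 log2 in controls, against 9.77 in Rnf2 mutants, 10.11 in Ring1 mutants and 9.95 in double mutants. Dppa4 averaged 6.05 log2 in controls, against 6.72, 6.69 and 6.51 in the same order. EG546797 and Atp2b4 changed by 0.16 ± 0.10 and -0.06 ± 0.07.

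The direction turned round for 3 of the falls. Epha7 fell by 1.06 ± 0.11 with Ring1 but rose by 2.42 ± 0.11 without it (adjusted p 1.2e-08), to 7.82 ± 0.07 log2 in double mutants, against 5.40 ± 0.15 in Ring1 mutants. Elf3 fell by 0.86 ± 0.14 with Ring1 and rose by 1.17 ± 0.14 without it (adjusted p 4.4e-05). Arl8a fell by 1.18 ± 0.11 with Ring1 and rose by 0.43 ± 0.11 without it (adjusted p 0.012). Its means were 9.44 ± 0.03 log2 in double mutants, 9.02 ± 0.23 in Ring1 mutants and 9.31 ± 0.16 in controls, against 8.13 ± 0.10 in Rnf2 mutants. Double mutants were thus near controls (0.13 ± 0.11, limma adjusted p 0.44), and Rnf2 mutants were the genotype that stood low. The interaction was 3.48 ± 0.16 for Epha7, 2.02 ± 0.20 for Elf3 and 1.61 ± 0.16 for Arl8a, each with a limma adjusted p of at most 2.0e-05.

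**Figure D3:**
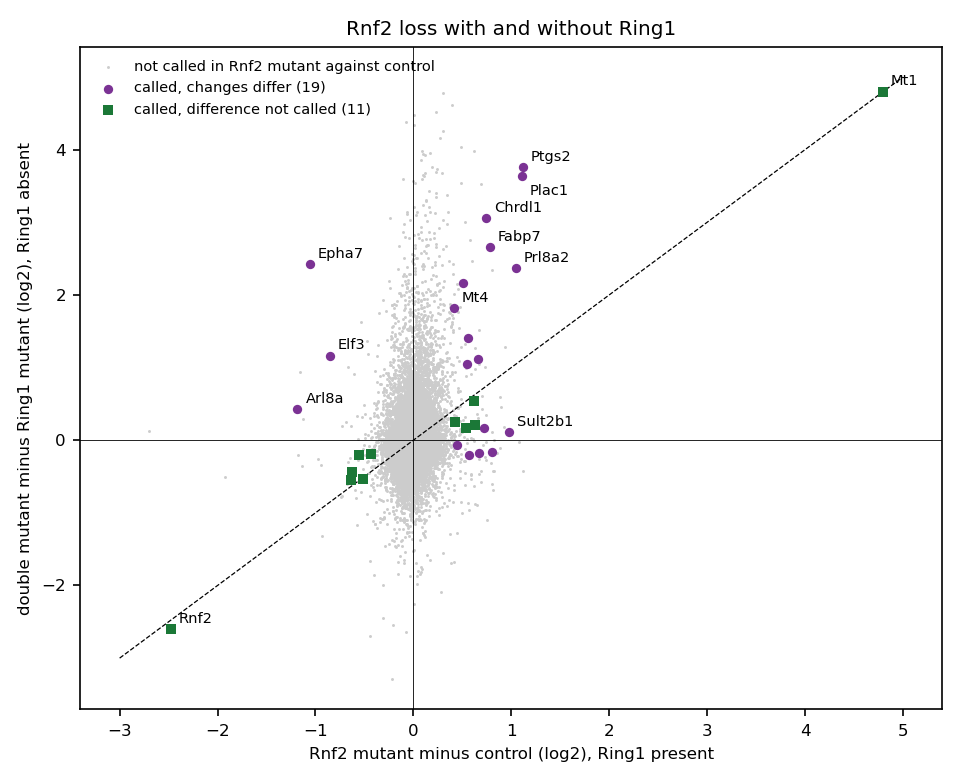
Change (log2) on loss of Rnf2 with Ring1 present (Rnf2 mutant minus control, horizontal) and absent (double mutant minus Ring1 mutant, vertical) for all genes in grey and the 30 called genes in colour, with the line of equal change dashed. Mt1 and Rnf2 sit on the line, Ptgs2, Plac1 and Chrdl1 far above it, and Epha7, Elf3 and Arl8a in the upper left.

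Seen from the Ring1-null side, 687 genes rose by 2-fold or more on loss of Rnf2 without Ring1, by a median of 1.49 log2. With Ring1 present these genes had a median change of 0.07 log2 (5th and 95th percentiles -0.20 and 0.41), against -0.01 over all genes. Of the 687, 464 (67.5%) were positive with Ring1 present, against 47.0% of all genes. An unadjusted p below 0.05 with a rise was found in 113 of them (16.4%), against 693 of all genes (3.21%). The 687 also had to pass an adjusted p below 0.05 that rests on the same estimate of spread, so this share is a description. Only 11 were called higher, Mt1 and the 10 genes whose rise was larger without Ring1, and 2 were called lower (Epha7, Elf3).

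The 128 genes that fell by 2-fold or more without Ring1 leaned the other way. Their median change with Ring1 present was -0.07 log2, 42 (32.8%) were positive, and 19 (14.8%) had a fall with unadjusted p below 0.05, against 749 of all genes (3.47%). The 128 were chosen in the same way, so this share too is a description. Rnf2 was the 1 called lower and none was called higher. Across all 21590 genes the changes in the 2 backgrounds correlated at r = 0.178, a description over genes that are not independent replicates. Among the steepest rises without Ring1, Plod2 (4.79 log2) changed by 0.31 ± 0.11 with Ring1, which was not called; it was named after its values were seen.

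**Figure D4:**
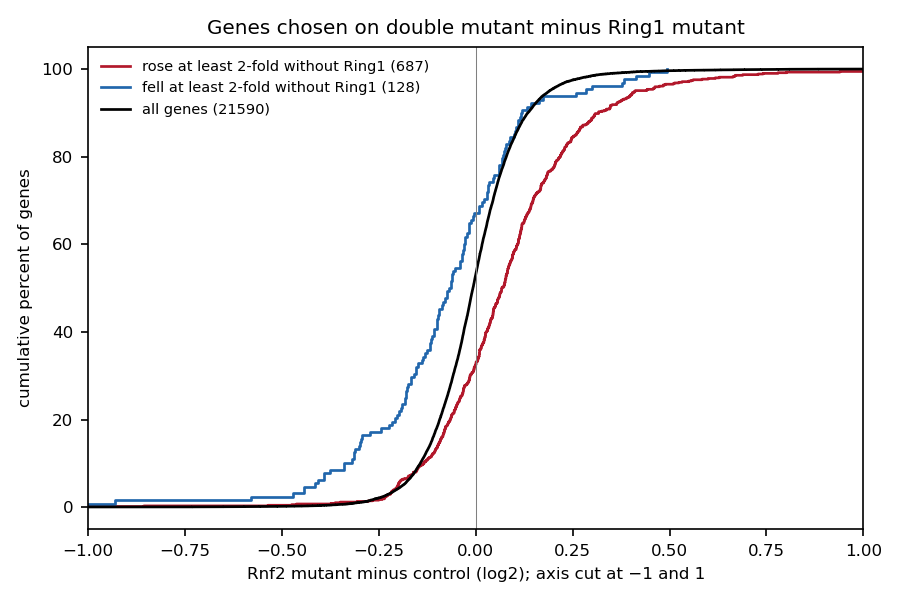
Cumulative percent of genes against the change in Rnf2 mutants minus control (log2, axis cut at −1 and 1) for 687 genes that rose and 128 that fell by 2-fold or more in double mutants against Ring1 mutants, and for all 21590 genes. Around the middle, the curve of the rises lies right of that of all genes (medians 0.07 and -0.01 log2) and that of the falls left of it (median -0.07).

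Ring1 mutant oocytes were compared with the same control arrays, so their changes share the controls with those above and are set side by side only. There 162 genes passed (0.750%). Of the 30 genes, 8 passed in the same direction there. Prl8a2 changed by 1.04 ± 0.07 in Rnf2 mutants and 1.19 ± 0.07 in Ring1 mutants, and Dppa4 by 0.67 ± 0.08 and 0.64 ± 0.08. Pdia6 changed by 0.81 ± 0.12 in Rnf2 mutants and 1.15 ± 0.12 in Ring1 mutants, and Tmed4 by 0.43 ± 0.07 and 0.43 ± 0.07. Abcc4, Arxes1 and B930036N10Rik also passed there. Mt1 (-0.08 ± 0.17) and Sult2b1 (0.09 ± 0.09) were not called in Ring1 mutants.

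Gene groups tied to Polycomb gave no limma call other than Rnf2 itself. Of 35 measured PRC1 subunits only Rnf2 was called; the median change was 0.01, and Skp1 and Usp7 changed by 0.04 ± 0.10 and -0.02 ± 0.06. Of 14 subunits of PRC2, which methylates histone H3 and works with PRC1, none was called, and Ezh2 changed by -0.02 ± 0.05. None of 12 H2A deubiquitinases was called (median 0.02). Among 38 Hox genes, the body-axis regulators that PRC1 silences in embryos, 10 lay above the floor and none was called, with a median of -0.02 and a range between -0.22 (Hoxc4) and 0.46 (Hoxd9). Among 163 other developmental transcription factors, 65 above the floor, none was called, with a median of -0.04, and 161 lay within 0.5 log2 of 0. The lowest change was -0.51 (Isl2). Hoxd9 measured 4.04, 4.10 and 4.16 log2 in Rnf2 mutants, against 3.64, 3.63 and 3.64 in controls, without overlap but with an adjusted p of 0.64. None of 47 germline genes that the E2F6-MGA form of PRC1 represses was called, and Tex15 had the smallest p (-0.50 ± 0.12, adjusted p 0.27). At an unadjusted p below 0.05 there were 2 PRC2 subunits, 0 deubiquitinases, 3 Hox genes, 14 other developmental factors and 7 germline genes, against 6.68% of all genes.

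Oocyte programs stayed within narrow limits. None of 57 oocyte and maternal-effect genes was called, and their changes ran between -0.14 (Khdc3) and 0.23 (Sohlh1), with the growth factor Gdf9 at 0.00 ± 0.06 and Btg4, which drives maternal mRNA decay, at -0.06 ± 0.06. None of 46 genes of meiotic arrest and the spindle was called (range -0.14 to 0.15), with Pde3a, the target of milrinone, at -0.12 ± 0.06. Of 47 maternal mRNA storage and decay genes none was called, and the poly(A)-binding protein Pabpn1l came nearest at 0.29 ± 0.06 (adjusted p 0.097). Dppa4 was the 1 call among 24 pluripotency genes and among 19 zygotic genome activation genes, a gene common to both lists. Its partner Dppa2 changed by 0.08 ± 0.05, and by 0.28 ± 0.09 in its dimmer second probe set, neither called. No gene was called among 57 DNA methylation and histone modifiers (Dnmt1 -0.01 ± 0.05), 44 imprinted genes (Mest -0.02 ± 0.05, Igf2r -0.20 ± 0.07) or 18 histone genes. At an unadjusted p below 0.05 there were 1 oocyte and maternal-effect gene, 0 meiotic genes, 4 maternal mRNA genes, 1 modifier, 6 imprinted genes and 2 histone genes, against 6.68% of all genes.

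Housekeeping and damage genes gave no call by limma. This held among 69 cytosolic ribosomal protein genes (median 0.03), 78 nuclear oxidative phosphorylation genes (median 0.01), 34 DNA replication genes (Pcna 0.09 ± 0.06), 33 p53 targets and apoptosis genes (Mdm2 -0.02 ± 0.06) and 17 cell cycle inhibitors and D cyclins (Rb1 0.13 ± 0.08). At an unadjusted p below 0.05 there were 2 ribosomal protein genes, 3 oxidative phosphorylation genes, 0 replication genes, 2 p53 and apoptosis genes and 1 cell cycle gene, against 6.68% of all genes.

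**Figure D5:**
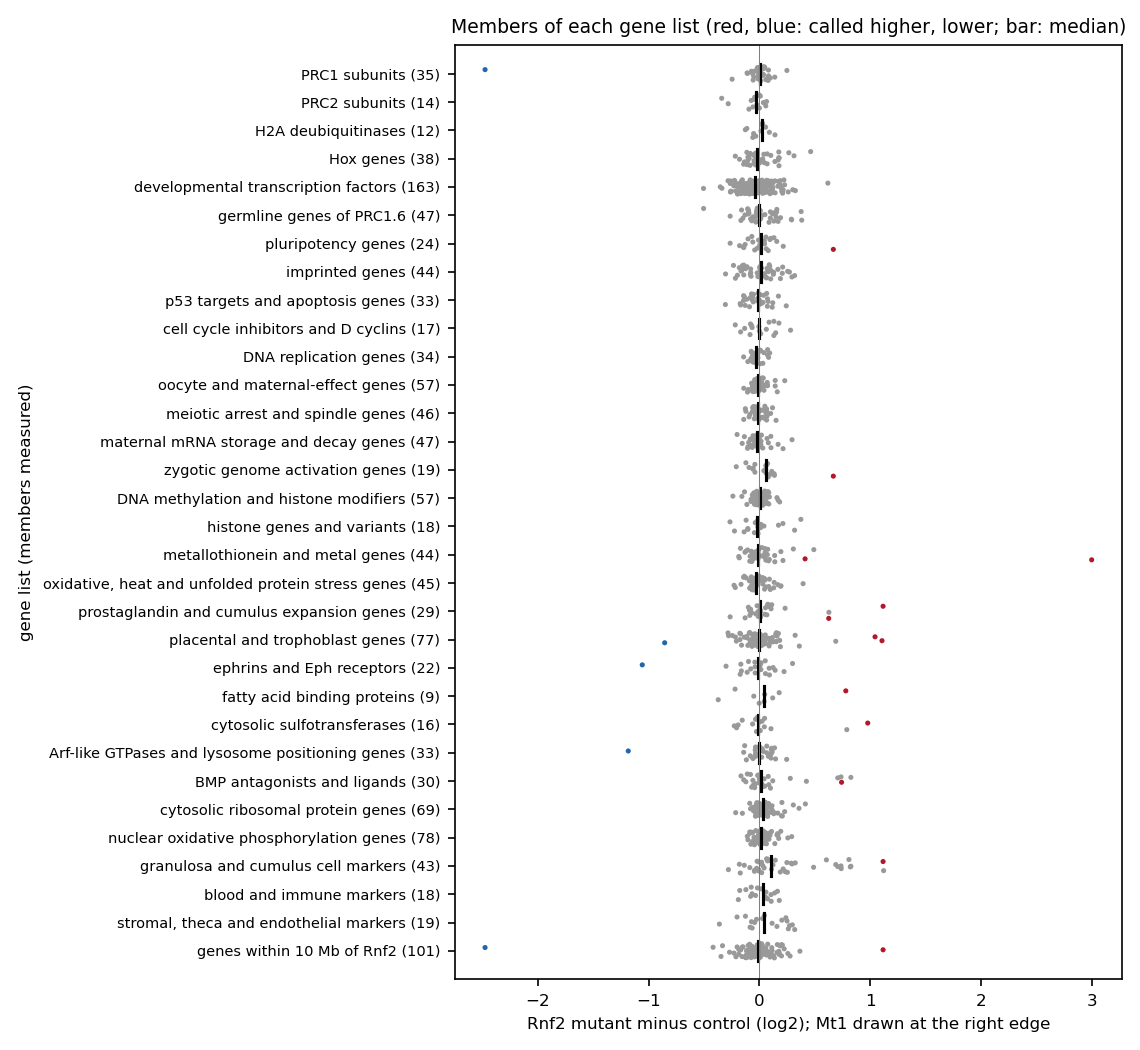
Change in Rnf2 mutants minus control (log2) of each measured member of 31 gene lists and of the genes within 10 Mb of Rnf2, called members in red (higher) or blue (lower) and the list's median as a bar. Medians lie within 0.1 log2 of 0 but for granulosa and cumulus cell markers (0.11), and no list holds more than 3 called members.

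Some large differences did not pass. Slc14a1, a urea transporter, measured 3.16, 3.11 and 3.25 log2 in Rnf2 mutants, against 7.05, 6.53 and 4.04 in controls. Control replicate 3 lay near the mutants, and the change of -2.70 ± 0.55 had an adjusted p of 0.12. Without that array it was -3.62 (adjusted p 6.5e-07). Slc14a1 was as low in Ring1 mutants (3.30, 3.15 and 3.22 log2) and in double mutants (3.59, 3.26 and 3.20). Control replicates 1 and 2 thus stood apart from every other array of the series. Loss of Rnf2 without Ring1 changed Slc14a1 by 0.13 ± 0.55. D830030K20Rik measured 2.82, 3.12 and 2.37 log2 in Rnf2 mutants, against 5.61, 4.58 and 3.90 in controls (-1.92 ± 0.53, adjusted p 0.39). In all, 9 genes differed by 2-fold or more without passing, 2 higher and 7 lower.

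Among uncalled genes whose groups did not overlap, the steepest rises included those of Tceal9 (0.94 ± 0.26), Il17b (0.93 ± 0.26), Sirpb1a (0.90 ± 0.20) and Gm4983 (0.81 ± 0.20). The steepest falls after Slc14a1 and D830030K20Rik were those of Gm5301 (-1.18 ± 0.40) and of the zinc finger genes Zfp820 (-0.94 ± 0.18) and Zfp69 (-0.93 ± 0.18). Zfp69 measured 6.09, 6.27 and 6.23 log2 in Rnf2 mutants, against 7.41, 7.20 and 6.77 in controls, with an adjusted p of 0.097 that became 0.049 without control replicate 3. Gm5301 measured 6.42, 6.27 and 4.32 log2 in Rnf2 mutants, against 6.88, 6.89 and 6.76 in controls, and without Rnf2 mutant replicate 3 its change was -0.50 (adjusted p 0.047). Zfp820 was at -1.21 without the same array (adjusted p 3.7e-04). Sirpb1a passed without double mutant replicate 2 (0.046), but its change stayed at 0.90, since that array is not part of the comparison. These fits were picked because the gene passed, out of 12 fits that each left out 1 array, so they are a description. Only 3 arrays a group limit the precision of all these values.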

How the data were processed

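The deposited table gave log2 intensities of 34760 probe sets on 12 arrays, normalized by the authors. Per the submitters' processing notes, affy in R 2.10.0 was used; how probes were summarized was not given in the sources used here. Of the probe sets, 23385 named 1 gene; symbols were updated through RefSeq (GRCm38.p6), and the brightest probe set stood for each of 1068 genes with several, leaving 21590 genes. The limma package (3.58.1, R 4.3.3; lmFit, eBayes) fitted a mean per genotype over all 12 arrays, and Benjamini-Hochberg adjustment ran over all genes; a call is an adjusted p below 0.05. Errors with changes are standard errors, with levels SDs. The script was tested on simulated data. Alternatives covered the arrays used, scaling, dim genes, probe sets, variance model, weights, replicate numbers and each array left out. Named genes were Rnf2, Ring1, all called genes, the 5 largest uncalled rises and falls with separate groups, and per list called members, or the 2 brightest and the one with the smallest p; others, such as relatives of called genes, list extremes and markers, were added after values were seen. The 31 lists and the rules were chosen with earlier results of these data known. A few genes that these rules name are not reported here.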

Additional observations from a re-analysis of the deposited data

Results flagged for a closer look

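For 19 genes called in Rnf2 mutants against controls, the change on loss of Rnf2 differed between Ring1-null oocytes and oocytes with Ring1, by the interaction term of the limma fit at an adjusted p below 0.05. The interaction, in log2, is the change without Ring1 minus the change with Ring1. It was positive for Epha7 (3.48), Ptgs2 (2.65), Plac1 (2.53), Chrdl1 (2.32), Elf3 (2.02), Fabp7 (1.88), Pde9a (1.66), Arl8a (1.61), Mt4 (1.41), Prl8a2 (1.33), Ust (0.85), 1700021F07Rik (0.49) and Arxes1 (0.46). It was negative for Pdia6 (-0.97), Sult2b1 (-0.87), Dppa4 (-0.85), EG546797 (-0.56) and Atp2b4 (-0.51), among others. Epha7, Elf3 and Arl8a changed in opposite directions in the 2 backgrounds.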

How the results depend on the processing

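Against 30 calls (21 higher, 9 lower), there were 6 (4 higher, 2 lower) with only the 6 arrays of both groups, 63 (40 higher, 23 lower) with a trended and robust variance model, and 13 (10 higher, 3 lower) over all probe sets, 12 of which name 1 gene and 1 none. Without chromosome 1 genes there were 23, of which 5 were lower. The last pair of alternatives was chosen after seeing the data. Same-numbered Rnf2 mutant and control arrays did not deviate together (correlations -0.06, -0.01 and -0.16, against -0.09 to 0.14 for unlike numbers). So few arrays cannot exclude a batch shared by replicate number. With the replicate number as a block 18 genes were called (13 higher, 5 lower), all among the 30. Leaving out 1 array gave 10 to 33 calls, 7 to 23 higher and 3 to 10 lower, and fits with fewer arrays have fewer residual degrees of freedom. Of the 30 calls, those lost without replicates 1, 2 and 3 numbered 16, 20 and 12 for Rnf2 mutants, 13, 6 and 11 for double mutants, 10, 10 and 2 for Ring1 mutants, and 17, 14 and 12 for controls. The fall of Rnf2 was called in every alternative that kept it, between -2.57 and -2.35 log2 with 1 array left out, and no called gene changed sign. Of the 30 calls 5 held throughout and 3 (Epha7, Plac1, Ptgs2) were lost only with the 6 arrays; Dppa4 was also lost with the mean of its probe sets. Changes near the floor are compressed.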
